A study of Arabidopsis thaliana with 16 samples.

Results

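The evening clock genes described here are GI (AT1G22770), TOC1 (AT5G61380), LUX (AT3G46640), ELF4 (AT2G40080) and ELF3 (AT2G25930), chosen by name for their known evening phase, with earlier results of these data known. They are 5 of 22746 probe sets of the Affymetrix ATH1 array, and each gene is read by 1 probe set: 264211_at for GI, 247525_at for TOC1, 252475_s_at for LUX, 267364_at for ELF4 and 266839_at for ELF3. The letter s in the LUX probe set name marks probes that can match several similar transcripts, so its signal may include a close relative. The annotation table used here lists a gene only for the GI probe set, so the other 4 carry the gene names given with the choice of members.

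Whole seedlings of Arabidopsis thaliana gave the total RNA for 16 arrays in 8 groups of 2. Wild type of the Wassilewskija accession, labelled WS, was compared with the double mutant lhy-21 cca1-11, a T-DNA knock out in the same background, written lhy cca1 here. Seedlings aged 9 days were harvested 4 times around dawn: 15 min ahead of it, and 15, 30 and 60 min past it. All groups shared 4 days of cold in the dark, medium with 3% sucrose, a temperature of 22 °C and cycles of 18 h light at 60 to 65 µE and 6 h dark. The seedlings of a plate were pooled. Separate cultures are not stated for the replicates, and the spread behind each p-value is that between these arrays, which may be technical. In pooled whole seedlings, fewer cells expressing a gene and less RNA per cell cannot be told apart.

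The plant circadian clock is a network of repressors that act at different times of day. LHY and CCA1 are related MYB-like transcription factors that accumulate around dawn and repress genes with an evening element in their promoters. In wild-type plants the transcripts of the evening genes are low near dawn and rise through the day. TOC1 is a pseudo-response regulator that represses LHY and CCA1 in return, and GI stabilises the F-box protein ZTL and promotes flowering under long days. LUX, a MYB-like DNA-binding protein, ELF4, a small protein, and ELF3, a scaffold protein, form the evening complex, which represses genes such as PRR9 and PIF4 at night.

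Intensities are linear and had been scaled per array by the submitters, with a trimmed mean close to 100.01 on every array. A signal is called dim where it lay at or below the 40th percentile of its array, which was between 19.1 and 22.0. Levels of different probe sets are not on 1 scale and are not compared with each other. The correlation between replicates ran from 0.961 to 0.981 in the 8 groups. The 25S rRNA control signal was higher in lhy cca1, at 7.76 ± 1.27 log2 (SD, n = 8) against 6.57 ± 0.523 (SD, n = 8) in WS (exact permutation test, 2-sided p = 0.0309). The 4 lhy cca1 replicate 2 arrays held most of this, at 8.01 to 9.15, so the genotype results of the evening genes were also computed without them. The ratio of 3' to 5' signal of the GAPDH control, a sign of RNA integrity, was higher in lhy cca1 too, at 0.68 ± 0.133 log2 (SD, n = 8) against 0.42 ± 0.156 (SD, n = 8), with 7 of 8 lhy cca1 arrays above all WS arrays (exact permutation test, 2-sided p = 0.00404). The same ratio of the actin control was 4.31 ± 0.211 log2 in lhy cca1 and 4.44 ± 0.321 log2 in WS (SD, n = 8 each, exact permutation p = 0.365). It ran from 3.93 log2 on an lhy cca1 array to 4.91 log2 on a WS array, so 3' signal far exceeded 5' signal on every array. Adjusted over the 3 array controls compared, p was 0.0464 for 25S rRNA and 0.0121 for the GAPDH ratio. A fit with the GAPDH ratio as a covariate was added after the data were seen. LHY and CCA1 have no probe set named in the annotation used here, so the genotype labels were not checked against the disrupted genes. Of 8 shoot and root marker genes, 2 were named: the shoot gene RCA read 5613 to 7825, and the root hair gene EXPA7 was dim on 14 of 16 arrays.

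All the evening genes had higher mean transcript signals in lhy cca1 than in WS at each of the 4 times. How many tested probe sets had this pattern was not counted. For ELF4 it is a description only, since every WS array was dim. The same holds for GI up to 15 min, when neither genotype rose above the 40th percentile. ELF3 before dawn differed by 0.07 log2 (limma adjusted p = 0.936). Its sign turned without WS before dawn replicate 2 or lhy cca1 before dawn replicate 1. For TOC1 the ratio of the means was 1.418 before dawn and 2.596 at 60 min, and for ELF3 it was 1.068 and 1.763, but the test of a changing difference passed for no member. The comparison gives how far these transcript signals differed between the double mutant and WS, and the cause of the differences was not tested. GI was higher at 60 min than before dawn in both genotypes, where the WS mean was 86.3 ± 8.44 (SD, n = 2) and the mutant mean 383 ± 31.3 (SD, n = 2). TOC1 and LUX differed between genotypes without overlap on any array, while ELF3 and GI overlapped over the 4 times. All 8 lhy cca1 arrays lay above all 8 WS arrays in 1.50% of tested probe sets. ELF4 did not overlap either, but it passed the filter on dim signals only through its lhy cca1 arrays, so this is no support.

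GI was dim on both arrays of either genotype before dawn and at 15 min. In WS its signal was 2.21 and 7.98 before dawn, 9.75 and 6.14 at 15 min, then 18.9 and 11.4 at 30 min, and finally 80.4 and 92.3 at 60 min. In lhy cca1 it was 11.8 on both arrays before dawn, 13.4 and 15.0 at 15 min, 54.5 and 57.5 at 30 min, and reached 361 and 405 at 60 min. Both lhy cca1 arrays lay above both WS arrays at all 4 times, although the order of dim signals is not informative. Such separation at a single time was common: it was seen in 23.3% of tested probe sets before dawn, 27.2% at 15 min, 25.6% at 30 min and 22.8% at 60 min. At 30 min GI was above the 40th percentile in lhy cca1 alone, and the level of lhy cca1 at 30 min lay between those of WS at 30 and at 60 min.

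For TOC1, the WS signal was 93.6 and 104 before dawn, 103 and 91.6 at 15 min, then 80.7 and 80.4 at 30 min, and finally 71.4 and 74.3 at 60 min. In lhy cca1 it was 128 and 152 before dawn, 154 and 163 at 15 min, then 169 and 141 at 30 min, and finally 206 and 172 at 60 min. The highest WS array lay below the lowest lhy cca1 array. Within WS the later signals were the lower ones, and within lhy cca1 the 60 min arrays were the highest.

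LUX read 44.6 and 18.2 in WS before dawn, 29.7 and 35.2 at 15 min, then 44.5 and 31.6 at 30 min, and finally 37.0 and 37.1 at 60 min. In lhy cca1 LUX read 57.7 and 59.6 before dawn, 72.2 and 63.1 at 15 min, then 88.2 and 97.1 at 30 min, and finally 102 and 119.5 at 60 min. In lhy cca1 the arrays of each time lay above those of the time before, whereas in WS the arrays before dawn spanned those of 15, 30 and 60 min, and replicate 2 before dawn was dim.

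ELF4 was dim on all 8 WS arrays and on none of the 8 lhy cca1 arrays. Its WS signals were 18.1 and 14.5 before dawn, 13.2 and 8.83 at 15 min, then 14.0 and 10.4 at 30 min, and finally 11.0 and 7.61 at 60 min. The lhy cca1 signals were 43.4 and 39.9 before dawn, 37.3 and 39.6 at 15 min, then 46.0 on both arrays at 30 min, and finally 53.0 and 60.9 at 60 min. The genotypes were separated on every array, and within lhy cca1 both 60 min arrays exceeded all earlier ones.

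ELF3 was the member with the most similar signals in both genotypes. WS read 87.9 and 73.8 before dawn, 76.5 and 73.7 at 15 min, then 51.9 and 65.1 at 30 min, and finally 50.2 and 36.4 at 60 min. The lhy cca1 arrays read 103 and 69.4 before dawn, 92.8 and 81.1 at 15 min, then 64.9 and 92.4 at 30 min, and finally 69.2 and 83.5 at 60 min. The genotypes overlapped before dawn and at 30 min, and both lhy cca1 arrays lay above both WS arrays at 15 and 60 min.

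**Figure D1:**
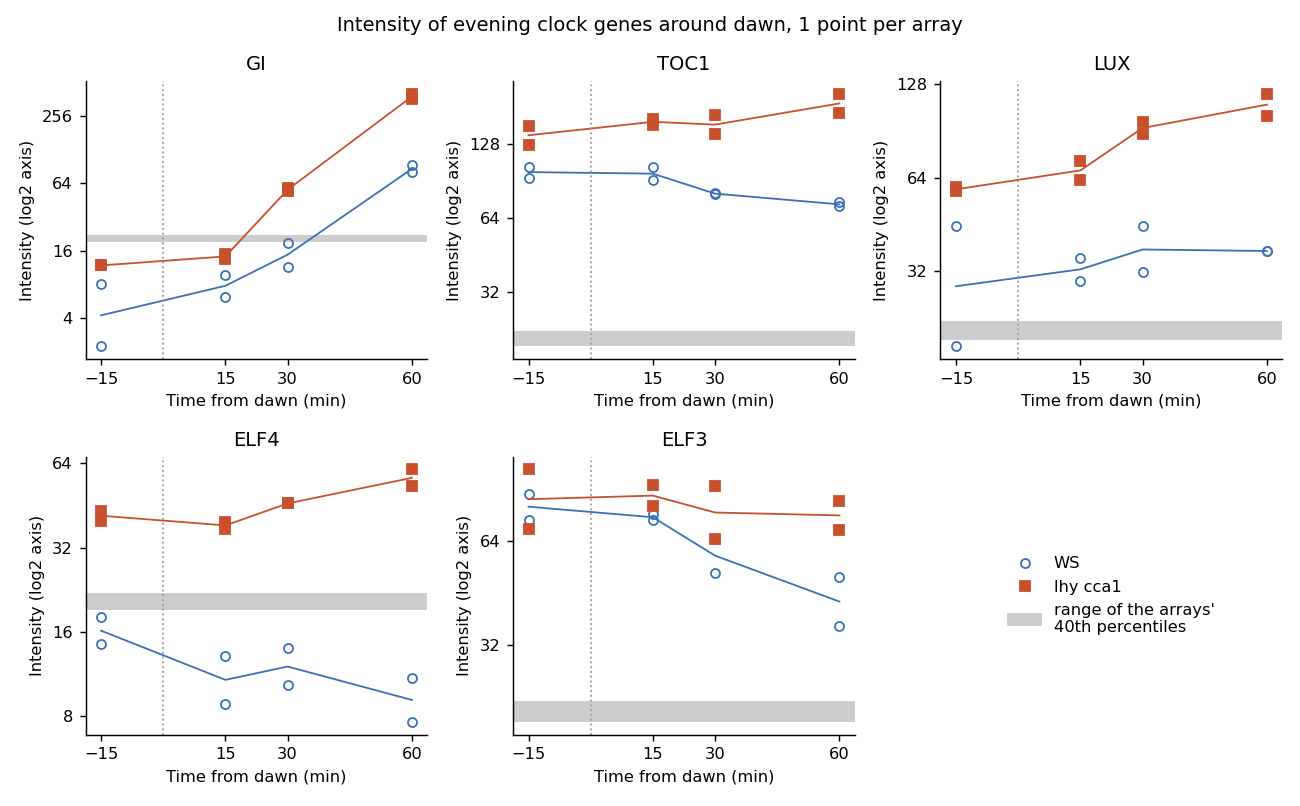
Intensity of the 5 evening clock genes on a log2 axis against time from dawn in minutes, with 1 point per array, lines through the means of the log2 values, and a grey band for the range of the arrays' 40th percentiles (19.1 to 22.0). TOC1, LUX and ELF4 do not overlap between WS (open circles) and lhy cca1 (filled squares), GI is highest at 60 min in both genotypes, and the ELF3 arrays mix before dawn and at 30 min. All WS arrays of ELF4 are dim, so its separation is a description only.

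The order of the 8 group means differed between genes. For TOC1, LUX and ELF4 the highest 4 groups were the 4 lhy cca1 groups and the lowest 4 were the WS groups, and the arrays on either side of that step did not overlap. For ELF4, dim in all WS groups, this is a description only. Among the lhy cca1 groups of TOC1, 15 min, 30 min and before dawn were neighbours with overlapping arrays. For LUX the WS groups at 30 and 60 min overlapped, as did WS at 15 min and before dawn. For GI the order ran from lhy cca1 at 60 min to WS at 60 min and lhy cca1 at 30 min, none of which overlapped its neighbour, and the other 5 groups were dim. For ELF3 the highest 5 groups each overlapped the next, and WS at 15 min did not overlap WS at 30 min. WS at 30 min overlapped lhy cca1 at 30 min, and WS at 60 min lay below all other groups.

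In the fit over all 14878 tested probe sets (limma, Benjamini-Hochberg adjusted p under 0.05), 5 of 5 members were higher in the double mutant when the 4 times were averaged. In that comparison 18.2% of tested probe sets differed, 10.9% being higher and 7.35% lower. ELF4 passed the filter on dim signals only through its lhy cca1 arrays, so its count is no support, and 4 of the other 4 were also higher. The median difference of the 5, ELF4 included, was 1.24 log2, against 0.02 over all tested probe sets. It is a description only, since the values of ELF4 and, in part, GI rest on dim signals. Apart from ELF4, TOC1 and LUX had all 8 lhy cca1 arrays above all 8 WS arrays, a pattern seen in 1.50% of tested probe sets.

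Averaged over the 4 times, ELF4 was at least 2.28-fold higher in lhy cca1 (adjusted p = 2.09e-07), with its WS side dim throughout, so log2 values given for it depend on signals at or below the 40th percentile. GI was higher by 1.61 ± 0.216 log2 (standard error, 8 arrays per genotype, adjusted p = 8.56e-05), a value that rests partly on dim signals. Adding 16 to each intensity before taking log2 lowered the difference of GI to 0.98 and gave 1.13 for ELF4. LUX was higher by 1.24 ± 0.148 log2 (adjusted p = 2.7e-05), and TOC1 by 0.88 ± 0.0769 log2 (adjusted p = 1.35e-06). These 4 stayed past the threshold under each of the 25 alternatives that could be fitted for this comparison, with the GAPDH covariate at 1.39 log2 for GI, 0.79 for TOC1, 1.45 for LUX and 2.00 for ELF4 (adjusted p from 0.000162 to 0.0274). For ELF4 this is a description only, since it passed the filter only through its lhy cca1 arrays.

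ELF3 was higher by 0.38 ± 0.115 log2, with an adjusted p of 0.0289. That call was lost without any of 9 single arrays (adjusted p from 0.0508 to 0.0831): WS before dawn replicate 2, WS 15 min replicates 1 and 2, WS 30 min replicate 1, WS 60 min replicate 2, lhy cca1 before dawn replicate 1, lhy cca1 15 min replicate 1, lhy cca1 30 min replicate 2 and lhy cca1 60 min replicate 2. It was also lost without the 4 lhy cca1 replicate 2 arrays (adjusted p = 0.107), with the 25S rRNA signal (adjusted p = 0.138) or the GAPDH ratio (adjusted p = 0.111) as a covariate and without the intensity trend (adjusted p = 0.0518). The other 4 members were past the threshold without those 4 arrays, at 1.56 log2 for GI, 0.90 for TOC1, 1.22 for LUX and 1.92 for ELF4 (adjusted p from 0.000307 to 0.0157). The ELF4 value is again a description only, as its WS arrays were all dim.

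Among arrays of 1 replicate number the differences were alike for GI and TOC1. The mean over 4 times was 1.64 log2 for GI among replicate 1 arrays and 1.58 among replicate 2 arrays, and 0.91 and 0.85 for TOC1. LUX differed by 1.02 and 1.46, ELF4 by 1.69 and 2.20, and ELF3 by 0.32 and 0.44. All of these members were higher at 4 of 4 times in both sets, except ELF3, which was higher at 3 of 4 times among replicate 2 arrays. The share of tested probe sets higher at all 4 times was not counted, and the ELF4 and GI values rest partly on dim signals.

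**Figure D2:**
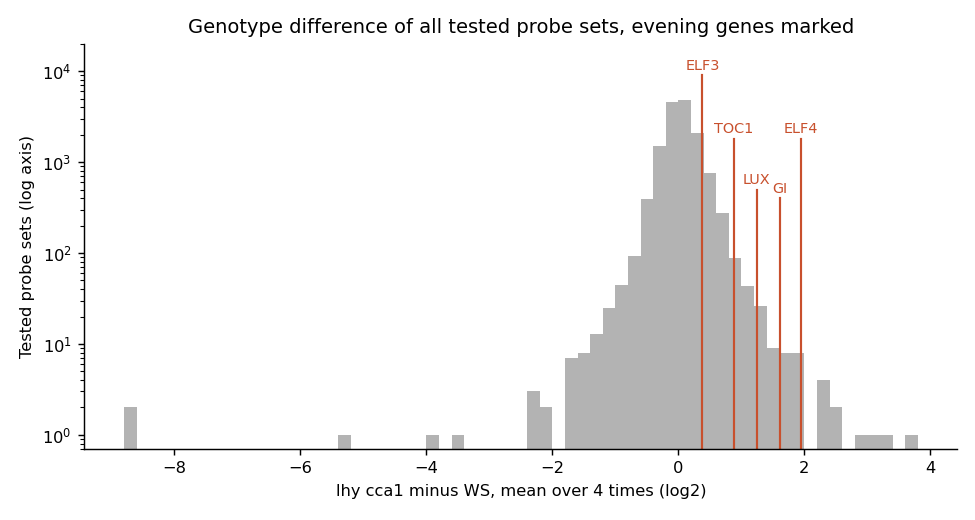
Number of tested probe sets (log axis) by their genotype difference, lhy cca1 minus WS in the mean over 4 times, in log2 bins of 0.2, with the 5 evening clock genes marked. ELF4, fitted from dim WS signals, GI (1.61) and LUX (1.24) lie in the sparse upper tail, TOC1 (0.88) at its start and ELF3 (0.38) in the flank of the central peak.

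At single times 1, 2, 4 and 4 members were called from before dawn to 60 min, ELF4 among them each time. Before dawn 0 of the other 4 members was higher (background 0.934% of tested probe sets higher), and ELF4 was higher by at least 2.05-fold (adjusted p = 0.025). This call was lost without any of the 4 arrays compared (adjusted p from 0.0881 to 0.155), without the 4 lhy cca1 replicate 2 arrays (adjusted p = 0.377), without the filter on dim signals (adjusted p = 0.0625) and with the 25S rRNA covariate (adjusted p = 0.0574). At that time TOC1 differed by 0.50 ± 0.154 log2 (adjusted p = 0.127), LUX by 1.04 ± 0.296 (adjusted p = 0.0965) and ELF3 by 0.07 ± 0.229 (adjusted p = 0.936), and GI was dim in both genotypes. The GI test passed on those dim signals without WS before dawn replicate 2 (adjusted p = 0.00362). Without WS before dawn replicate 1, LUX differed by 1.69 (adjusted p = 0.00371), and without replicate 2, the dim array, by 0.39 (adjusted p = 0.529).

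At 15 min TOC1, 1 of the 4 members other than ELF4, was higher (background 1.14%). ELF4 was at least 1.92-fold higher (adjusted p = 0.00426) and TOC1 differed by 0.70 ± 0.154 log2 (adjusted p = 0.0294). The TOC1 call was lost without any of the 4 arrays compared (adjusted p from 0.111 to 0.273), and the ELF4 call without WS 15 min replicate 2 (adjusted p = 0.0517) or lhy cca1 15 min replicate 2 (adjusted p = 0.0876). Without the 4 lhy cca1 replicate 2 arrays neither passed (adjusted p = 0.301 for TOC1 and 0.2 for ELF4). With the 25S rRNA covariate neither passed either (adjusted p = 0.21 for TOC1 and 0.0889 for ELF4), and TOC1 did not without the intensity trend (adjusted p = 0.0596) or with the GAPDH covariate (adjusted p = 0.108). LUX differed by 1.06 ± 0.296 log2 and did not pass (adjusted p = 0.0867). It passed when only the 4 arrays of that time were fitted (adjusted p = 0.0118) and without WS before dawn replicate 1 or 2 (adjusted p = 0.0136 and 0.0126).

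At 30 min 3 of the 4 members other than ELF4 were higher (background 0.665%). TOC1 differed by 0.94 ± 0.154 log2 (adjusted p = 0.00542) and LUX by 1.3 ± 0.296 (adjusted p = 0.0445). ELF4 was at least 2.37-fold higher (adjusted p = 0.0032), and GI at least 2.88-fold higher (adjusted p = 0.0414), both against dim WS signals. ELF3 did not pass, at 0.42 ± 0.229 log2 (adjusted p = 0.552). The TOC1 call was lost without WS 30 min replicate 1 (adjusted p = 0.0758), WS 30 min replicate 2 (adjusted p = 0.0518) or lhy cca1 30 min replicate 1 (adjusted p = 0.079), and for ELF4 the adjusted p became 0.0563 with replicate 2 of lhy cca1 at 30 min left out. GI lost it without either WS 30 min array or any lhy cca1 array from after dawn (adjusted p from 0.0565 to 0.287). LUX lost it without any single array other than those of WS before dawn and WS at 60 min (adjusted p from 0.0524 to 0.326). GI and LUX also did not pass under median centring (adjusted p = 0.052 and 0.0555), quantile normalization (0.0534 and 0.0658), no filter (0.0884 and 0.0815), no intensity trend (0.0994 and 0.12) or the 25S rRNA covariate (0.0514 and 0.0821), and without the 4 lhy cca1 replicate 2 arrays no member did (adjusted p from 0.0688 to 0.955). None passed with the GAPDH covariate either, where the adjusted p was 0.188 for TOC1, 0.141 for LUX, 0.0628 for ELF4 and 0.408 for GI, and 26 probe sets in all were called against 159.

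At 60 min the genotype differences were 1.37 ± 0.154 log2 for TOC1 (adjusted p = 0.000101), 1.57 ± 0.296 for LUX (adjusted p = 0.00795) and 2.15 ± 0.433 for GI (adjusted p = 0.0116). ELF4 was at least 2.89-fold higher (adjusted p = 8.97e-05). Leaving out ELF4, 3 of 4 members were higher, where 2.39% of tested probe sets were. ELF3 differed by 0.83 ± 0.229 log2 and missed the threshold (adjusted p = 0.0576). With the replicate number as a block ELF3 passed (adjusted p = 0.0452), and also without WS 60 min replicate 1 (adjusted p = 0.037), either lhy cca1 array from before dawn (adjusted p = 0.0459 and 0.0453). For GI and LUX the adjusted p was 0.106 and 0.0866 with replicate 2 of lhy cca1 at 60 min left out, and past 0.05 as well without all 4 lhy cca1 replicate 2 arrays (adjusted p = 0.233 and 0.194), and with the GAPDH covariate GI did not pass (adjusted p = 0.135). TOC1 passed under each of the 26 alternatives, with adjusted p up to 0.0148. ELF4 did too, with adjusted p up to 0.0375, but it passed the filter only through its lhy cca1 arrays, so this is no support.

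**Figure D3:**
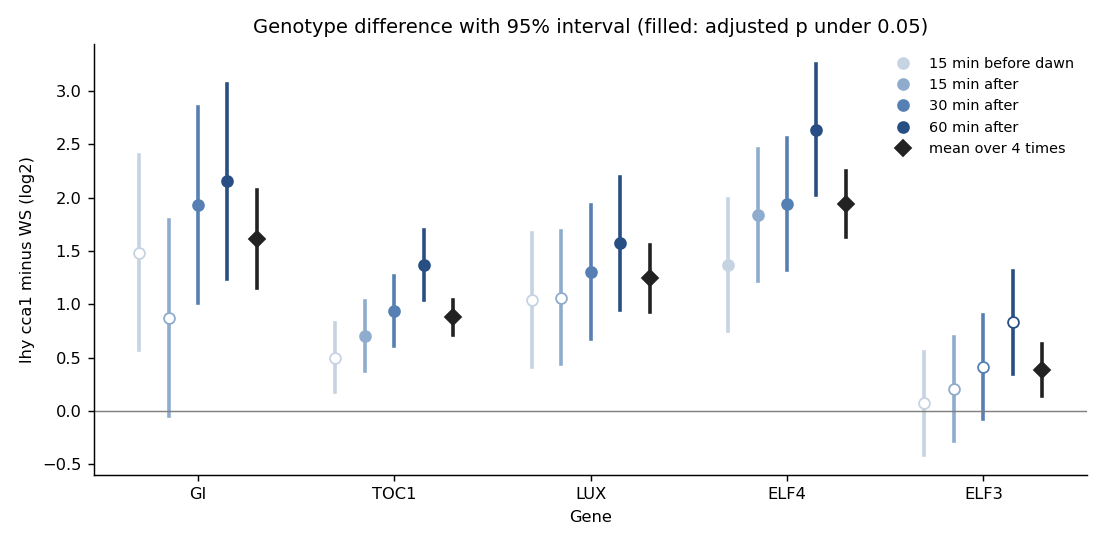
Genotype difference of each gene, lhy cca1 minus WS in log2, at each time and in the mean over 4 times, with 95% intervals from the limma fit and filled symbols where the adjusted p was under 0.05. The fitted differences at 60 min run from 0.83 for ELF3 to 2.15 for GI, with ELF4 above them, and those of ELF4 at all times and of GI before 60 min involve dim signals.

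GI was the member that changed most over dawn. Each time after dawn was set against 15 min before it within a genotype, and because no sample was kept dark past dawn, light and time cannot be told apart. The 2 genotypes have separate before-dawn arrays, but within a genotype the 3 comparisons share them. At 15 min no member passed in either genotype in limma (background 0.128% in WS and 0.0807% in lhy cca1). At an unadjusted p under 0.05 there were 0 of 5 in either, near the background of 6.69% of tested probe sets in WS and 4.95% in lhy cca1.

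GI passed the filter on dim signals only through arrays at 30 and 60 min, so its calls over dawn are a description only. At 30 min GI rose in lhy cca1 by at least 2.62-fold (adjusted p = 0.00824), 1 of 5 members against a background of 0.760% risen. This call was lost without any of the 4 arrays compared (adjusted p from 0.0546 to 0.077) and without the 4 lhy cca1 replicate 2 arrays (adjusted p = 0.44). In WS the GI test also passed at 30 min (adjusted p = 0.0379, background 0.907% risen), but both groups were dim, so no fold is given. Without WS before dawn replicate 1, which held the lowest GI signal of all arrays, that difference was 0.88 log2 (adjusted p = 0.356), and 8 other arrays left out singly also ended it: both WS 30 min arrays and the 6 lhy cca1 arrays from after dawn. The WS call at 30 min was lost as well with 16 added to each intensity (adjusted p = 0.106), without the filter (adjusted p = 0.0785), without the intensity trend (adjusted p = 0.0806) and without the 4 lhy cca1 replicate 2 arrays (adjusted p = 0.154).

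By 60 min GI had risen in both genotypes, in WS by at least 4.23-fold (adjusted p = 4.8e-06) and in lhy cca1 by at least 17.9-fold (adjusted p = 1.16e-06), and both calls held under each of the 26 alternatives. In WS 3.54% of tested probe sets had risen and 5.38% had fallen at 60 min, and in lhy cca1 4.32% had risen. Adding 16 to each intensity moved the fitted change of GI in WS from 4.36 to 2.29 log2.

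ELF3 fell in WS at 60 min, by 0.91 ± 0.229 log2 (adjusted p = 0.0177), from a mean of 80.9 ± 9.97 (SD, n = 2) to 43.3 ± 9.81 (SD, n = 2). The call was lost without WS before dawn replicate 1 (adjusted p = 0.144) or WS 60 min replicate 2 (adjusted p = 0.136), and when only the 4 arrays compared were fitted (adjusted p = 0.063). In lhy cca1 the ELF3 difference at 60 min was -0.16 ± 0.229 log2 (adjusted p = 0.775), with a 95% interval from -0.64 to 0.33.

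The remaining 3 members did not pass at 30 or 60 min in either genotype. TOC1 differed at 60 min by -0.44 ± 0.154 log2 in WS (adjusted p = 0.0929) and by 0.43 ± 0.154 in lhy cca1 (adjusted p = 0.0975), with both later arrays below both earlier ones in WS and above them in lhy cca1. How many tested probe sets were separated in this way over dawn was not counted. LUX differed by 0.38 ± 0.296 in WS (adjusted p = 0.508). Without WS before dawn replicate 1 that difference was 1.02 (adjusted p = 0.0186), and at 30 min 1.04 (adjusted p = 0.0485), while without replicate 2 LUX differed by -0.27 at 60 min. In lhy cca1 LUX differed by 0.91 ± 0.296 at 60 min (adjusted p = 0.0665), and this passed with the replicate block (adjusted p = 0.0493), with 16 added to each intensity (adjusted p = 0.0223), when only the 4 arrays compared were fitted (adjusted p = 0.0102) and without either WS before dawn array (adjusted p = 0.00679 and 0.00606). ELF4 was dim in WS at all times, and in lhy cca1 it differed by 0.45 ± 0.292 log2 (adjusted p = 0.432).

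**Figure D4:**
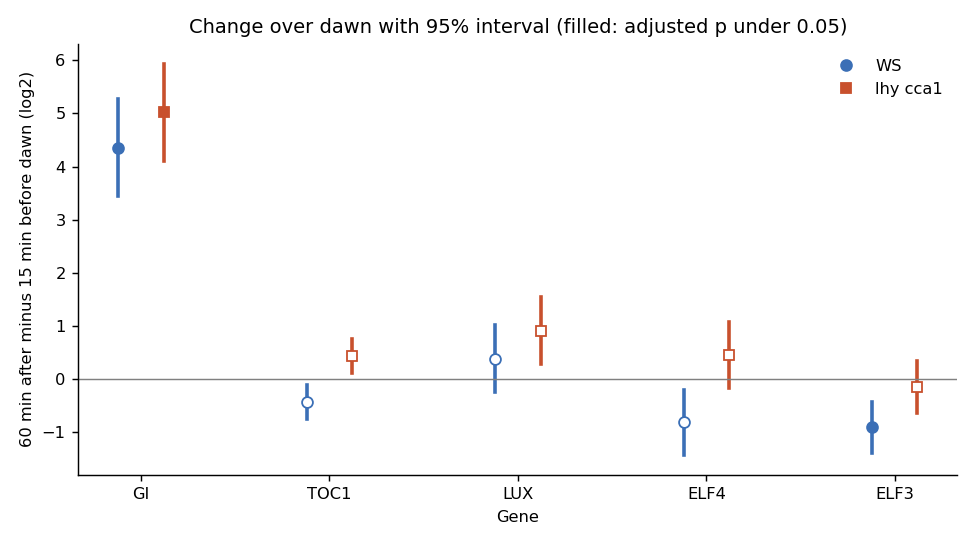
Change from 15 min before dawn to 60 min after it in log2 for each gene in WS (circles) and lhy cca1 (squares), with 95% intervals from the limma fit and filled symbols where the adjusted p was under 0.05. GI stands at 4.36 and 5.02, fitted from dim signals before dawn, and the WS value of ELF4 is fitted from dim signals at both times. In each gene the lhy cca1 value lies above the WS value, but this difference passed the test for no member. For GI and LUX its sign turned with 1 WS array from before dawn left out.

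Whether the change over dawn differed between genotypes was tested by the interaction at 60 min. No member passed in limma (background 0.0202% of tested probe sets). At an unadjusted p under 0.05 there were 3 of 5, where 6.86% of tested probe sets were, and 1 of the 3 was ELF4. The fitted differences, lhy cca1 minus WS, were positive for all 5: 0.67 ± 0.612 log2 for GI (adjusted p = 0.888), 0.87 ± 0.218 for TOC1 (adjusted p = 0.359), 0.53 ± 0.418 for LUX (adjusted p = 0.857), 1.27 ± 0.413 for ELF4 (adjusted p = 0.545) and 0.76 ± 0.324 for ELF3 (adjusted p = 0.677). The share of tested probe sets with a positive difference was not counted, and their median was 0.02 log2. The 95% intervals of TOC1, 0.41 to 1.33, and ELF3, 0.07 to 1.44, lay above 0 before adjustment over all probe sets. The ELF4 value is a description only, since both of its WS groups were dim, and the GI value uses dim signals before dawn. With 16 added to each intensity the interaction of GI passed, at 1.56 log2 (adjusted p = 0.023). Without WS before dawn replicate 2 it was -0.26 (adjusted p = 0.924), and the LUX value without WS before dawn replicate 1 was -0.12 (adjusted p = 0.997).

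Of a list of 40 other clock genes, 5 were named by the annotation and 3 of these were tested: RVE5 and RVE6, which belong to the MYB-like family of LHY and CCA1, and TIC, a nuclear regulator of clock period and phase. COR27 and COR28 did not pass the filter. In the mean over 4 times 0 of 3 were higher in lhy cca1, where 10.9% of tested probe sets were, 1 was lower and 2 did not pass. Their median difference was -0.10 log2 against 0.02 over all tested probe sets. The 1 was RVE5, at -0.36 ± 0.102 log2 (adjusted p = 0.0198), against the 7.35% of tested probe sets that were lower. It was not called without the 4 lhy cca1 replicate 2 arrays (adjusted p = 0.167) or with the 25S rRNA (adjusted p = 0.181) or GAPDH covariate (adjusted p = 0.662). Before dawn its WS mean was 56.0 ± 0.239 (SD, n = 2) and its lhy cca1 mean 39.5 ± 4.36 (SD, n = 2). At 60 min against before dawn, RVE6 rose in WS by 0.88 ± 0.224 log2 (adjusted p = 0.0198) and in lhy cca1 by 1.07 ± 0.224 (adjusted p = 0.00471), and RVE5 rose in lhy cca1 by 0.76 ± 0.204 (adjusted p = 0.0245). None of these 3 calls held without the 4 lhy cca1 replicate 2 arrays (adjusted p = 0.06, 0.138 and 0.348). With all arrays that made 1 of 3 in WS, where 3.54% of tested probe sets had risen, and 2 of 3 in lhy cca1, where 4.32% had. TIC passed in none of these comparisons.

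The genes most alike in pattern were taken as the 3 named genes with the highest Pearson correlation of log2 intensity over the 16 arrays, among 8048 tested probe sets with 1 gene. These arrays share genotype and time, so the values describe the pattern and are not tested. For GI they were AT3G17800 (r = 0.947), AT1G21590 (r = 0.937) and AT1G73480 (r = 0.932), and within the 8 arrays of WS or of lhy cca1 these correlated with GI at 0.897 to 0.971. For ELF3 they were AT4G02370 (r = 0.896), AT1G32530 (r = 0.864) and BGLU45 (r = 0.864).

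For ELF4 AT1G54410 was highest (r = 0.968), and within lhy cca1 the pair correlated at 0.074. The same gene was among the 3 for TOC1 (r = 0.931, and 0.229 within lhy cca1), after AT5G62720 (r = 0.952) and AT3G26580 (r = 0.935, and -0.032 within lhy cca1). The other 2 for ELF4 were AT1G19370 (r = 0.955) and AT4G32340 (r = 0.949). For LUX AT3G04550 (r = 0.939), AT2G28720 (r = 0.925) and AT5G57345 (r = 0.919) were closest, at 0.672 to 0.932 within lhy cca1 and 0.422 to 0.680 within WS.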

How the data were processed

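RNA of 16 seedling samples was hybridised to 1 ATH1 array each. The authors deposited linear intensity values, made with MAS5 and GCOS per the submitters' processing notes, with versions not given in the sources used here. Per the labels' protocols, targets were labelled by the one-cycle method with biotin. After 64 controls were removed from 22810 probe sets, values were converted to log2 with no offset. A probe set was tested if above its array's 40th percentile on at least 2 arrays, which left 14878. Group means (8) were fitted in limma 3.58.1 (R 4.3.3) with an intensity trend and 8 residual degrees of freedom. All tests are 2-sided, adjusted p-values run over all tested probe sets, and ± after a log2 difference is its standard error. The number of arrays limits the precision. Where a group was dim on all arrays, the brighter mean was set against the higher of the 40th percentile and the dim signal, given as at least N-fold.

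The fit was tested on simulated data. The members were fixed by name, named list genes by smallest adjusted p (up to 4 a comparison), and the most alike genes as the 3 of highest correlation. Members and lists were chosen with earlier results of these data known. Other clock genes were named through the annotation and a reference table of TAIR10.1, by locus. There were 26 alternatives: replicate block, median centring, quantile normalization, an offset of 16, no filter, no trend, a 25S rRNA covariate, a GAPDH 3' to 5' ratio covariate added after the data were seen, fits without the 4 lhy cca1 replicate 2 arrays, fits of only the groups compared, and each of 16 arrays left out. Promoter and protein sequences were not used here.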

Additional observations from a re-analysis of the deposited data

Results flagged for a closer look

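TOC1 arrays lay in opposite orders over dawn in WS and lhy cca1, although neither change passed the test. Both WS arrays at 60 min lay below both before dawn, and both lhy cca1 arrays lay above. The share of tested probe sets separated in this way over dawn was not counted. Between genotypes at 60 min, 22.8% had both lhy cca1 arrays above both WS arrays. The change in lhy cca1 exceeded that in WS by 0.87 log2, which did not pass the interaction test over all probe sets (limma adjusted p = 0.359). ELF4 did the same at 60 min, with a difference of 1.27 log2 (limma adjusted p = 0.545), and at 30 min, with a difference of 0.57 log2, which was not tested. The ELF4 signals were dim on all WS arrays, so their order over dawn carries no information.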

How the results depend on the processing

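Of 1547 recomputed differences of single members, 1411 kept their direction and their side of the threshold, 100 no longer passed, 17 newly passed and 19 turned sign. For each setting the number of members past the threshold is given where it moved by over 1.5 times. In the comparison of genotypes before dawn (1 with all settings as reported) it was 0 without the filter, with the 25S rRNA covariate and without the 4 lhy cca1 replicate 2 arrays. At 15 min (2) it was 1 without the intensity trend and with the GAPDH covariate, and 0 with the 25S rRNA covariate and without those 4 arrays. At 30 min (4) it was 2 under median centring, under quantile normalization, without the filter, without the trend and with the 25S rRNA covariate, and 0 without the 4 arrays and with the GAPDH covariate, and at 60 min (4) it was 2 without them. For WS at 30 min (1) it was 0 with an offset of 16, without the filter, without the trend and without the 4 arrays. With only the groups compared GI, the 1 member called there, was dim on both sides and was not tested. For WS at 60 min (2) it was 1 with only the groups compared. For lhy cca1 at 30 min (1) it was 0 without the 4 arrays, and at 60 min (1) it was 2 with the replicate block, with the offset and with only the groups compared. For the interaction (0) it was 1 with the offset. The cause of these shifts was not tested.

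Leaving out 1 array at a time gave 4 to 5 members for the genotype mean, 0 to 1 before dawn, 0 to 3 at 15 min, 1 to 4 at 30 min and 2 to 5 at 60 min. It gave 0 to 1 for WS at 30 min, 1 to 2 for WS at 60 min, 0 to 1 for lhy cca1 at 30 min and 1 to 2 for lhy cca1 at 60 min, and 0 for both genotypes at 15 min and for the interaction.

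The sign turned in 16 fits with 1 array left out and in 3 others, none past the threshold (adjusted p at least 0.599). With 1 array left out at a time the ranges of the differences concerned were as follows. In WS at 15 min they were -0.046 to 1.80 log2 for GI, -0.11 to 0.064 for TOC1, -0.47 to 0.83 for LUX and -0.23 to 0.024 for ELF3. LUX in WS ranged from -0.25 to 1.04 at 30 min and from -0.27 to 1.02 at 60 min. ELF3 in lhy cca1 ranged from -0.25 to 0.32 at 15 min, from -0.42 to 0.16 at 30 min and from -0.44 to 0.13 at 60 min, and was -0.15 at 15 min without the 4 lhy cca1 replicate 2 arrays. With the GAPDH covariate it was -0.0074 at 15 min, and TOC1 in WS at 15 min was 0.050. The ELF3 genotype difference before dawn ranged from -0.22 to 0.36, and the interactions from -0.26 to 1.59 for GI and from -0.12 to 1.18 for LUX.

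Same-numbered arrays did not deviate together throughout: the correlation of replicate deviations was -0.0163 to 0.269 over 28 pairs of groups. It was over 0.1 in 5 of 6 pairs within lhy cca1, 3 of 6 within WS and 7 of 16 across genotypes, so the numbers were not taken as pairing. As a replicate block they changed 2 member calls, ELF3 between genotypes at 60 min (adjusted p = 0.0452) and LUX in lhy cca1 at 60 min (adjusted p = 0.0493). Over all probe sets, 2709 calls for the genotype mean became 873 without the 4 lhy cca1 replicate 2 arrays, 1182 with the 25S rRNA covariate and 733 with the GAPDH covariate. The block raised the calls between genotypes from 239 to 410 before dawn, from 257 to 434 at 15 min and from 159 to 254 at 30 min. GI and ELF4, where both sides were dim, could not be fitted with only the groups compared, and the promoter motif search planned was not run. Signals near or below the 40th percentile limit what GI before 30 min, GI in WS at 30 min and ELF4 in WS can show.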
